A study of Mus musculus with 4 samples.

Results

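CC chemokines are small secreted proteins that attract leukocytes, and 10 of their genes, *Ccl2*, *Ccl3*, *Ccl4*, *Ccl5*, *Ccl6*, *Ccl7*, *Ccl8*, *Ccl9*, *Ccl12* and *Ccl24*, are described here in neutrophils sorted from injured mouse hearts. They were listed by name, with earlier results of these data known, and are 10 of the 25655 genes in the files, which hold 14 other CC chemokine genes. RNA-Seq was performed on 4 libraries, 1 per group, to compare neutrophils with and without the inhibitory receptor CD300a, which binds phosphatidylserine on dying cells. The groups were SiglecF hi neutrophils of WT mice, SiglecF hi neutrophils of *Cd300a-/-* mice (CD300a_KO in the labels), SiglecF lo neutrophils of WT mice and SiglecF lo neutrophils of *Cd300a-/-* mice. All mice were adult males with myocardial ischemia and reperfusion (MI/R), and hearts were taken on day 3. The cells were sorted as CD45.2+CD11b+Ly6G+, and the subsets carry SiglecF+ and SiglecF- in the labels. Each library pooled 8 mice, so differences among the mice of a pool cannot be seen, and the deletion of *Cd300a* was in all cells of the mouse and not only in neutrophils. Total counts per library were 19278243 (WT SiglecF hi), 17632989 (*Cd300a-/-* SiglecF hi), 9631901 (WT SiglecF lo) and 10988619 (*Cd300a-/-* SiglecF lo).

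CC chemokines bind G protein-coupled receptors on leukocytes and draw them from the blood into tissue. After myocardial infarction, ligands of Ccr2 such as *Ccl2* bring inflammatory monocytes to the heart, while ligands of Ccr1 act on monocytes, macrophages, lymphocytes and neutrophils. Neutrophils that have entered a tissue can make CC chemokines themselves, and macrophages make many of the same ones.

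The labels were first checked with marker genes, as TPM, a relative transcript level that corrects counts for gene length and has an equal sum in all libraries. The WT libraries had 163 TPM (SiglecF hi) and 127 TPM (SiglecF lo) of *Cd300a*, and the *Cd300a-/-* libraries 0.74 TPM and 1.06 TPM. *Siglecf* reached 354 TPM (WT) and 405 TPM (*Cd300a-/-*) in the SiglecF hi libraries, compared with 11.3 TPM and 15.3 TPM in the SiglecF lo ones. Both genes followed the labels. *Ly6g*, a sorting marker of all 4 libraries, was low in the SiglecF hi libraries (11.1 TPM for WT, 41.9 TPM for *Cd300a-/-*) and high in the SiglecF lo libraries (330 TPM and 889 TPM). The sorting markers *Itgam* (337 to 550 TPM) and *Ptprc* (608 to 710.0 TPM) were high in every library. A list of 10 neutrophil genes, all above 10 TPM in every library and led by the alarmin *S100a9*, summed to 31350.2 TPM (WT SiglecF hi), 37306 TPM (*Cd300a-/-* SiglecF hi), 159857 TPM (WT SiglecF lo) and 209194 TPM (*Cd300a-/-* SiglecF lo). Eosinophils also carry SiglecF, but their defining gene *Epx* was at 0 in all 4 libraries, and *Prg2* was above 0 in the WT SiglecF hi library alone, at 0.272 TPM. Other genes of the 9 on the eosinophil list were present, with *Ear2* between 85.9 TPM and 171 TPM in the 4 libraries, *Ccr3* at 4.91 TPM (WT) and 5.49 TPM (*Cd300a-/-*) in SiglecF hi neutrophils, and *Prg3* at 0.805 TPM in *Cd300a-/-* SiglecF hi neutrophils.

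Macrophage genes were present in every library. All 16 genes of the macrophage list were above 0 in each, led by *Apoe*, which was at 8313 TPM (WT SiglecF hi), 8107 TPM (*Cd300a-/-* SiglecF hi), 2637 TPM (WT SiglecF lo) and 2109 TPM (*Cd300a-/-* SiglecF lo). The list summed to 17944 TPM, 16429.7 TPM, 6466 TPM and 5533 TPM in the same order, so that it was higher in the SiglecF hi libraries. These sums stand beside every comparison of the subsets below, since macrophages also make CC chemokines, and their part in those results was not tested. In bulk samples, fewer cells of a type and less RNA per cell cannot be told apart.

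The level of the CC chemokines ranged widely, from *Ccl3*, which ranked 25 to 131 among all genes by library, to *Ccl24*, which ranked 5238 to 8532. The 10 genes held 0.825% of all TPM (WT SiglecF hi), 0.843% (*Cd300a-/-* SiglecF hi), 0.597% (WT SiglecF lo) and 0.429% (*Cd300a-/-* SiglecF lo). As a share of counts, which does not correct for gene length, the order of the WT subsets turned (0.324% for WT SiglecF hi, 0.343% for WT SiglecF lo). *Ccl3*, *Ccl4* and *Ccl6* together made up 74.8% to 80.7% of the family total in the 4 libraries. The leading gene differed by subset. *Ccl3* held 43.2% (WT) and 47.3% (*Cd300a-/-*) of the family in SiglecF hi neutrophils, and *Ccl6* held 41.8% and 45.8% in SiglecF lo neutrophils. The family order in SiglecF hi neutrophils began *Ccl3*, *Ccl4*, *Ccl6* in both genotypes, and in SiglecF lo neutrophils *Ccl6*, *Ccl3*, *Ccl4*. Neighbours in these orders differed beyond their 95% counting intervals, except *Ccl7* and *Ccl2* in WT SiglecF lo neutrophils, and *Ccl8* and *Ccl12* as well as *Ccl24* and *Ccl5* in *Cd300a-/-* SiglecF lo neutrophils. These intervals and all those below come from exact Poisson limits of the counts and include no error but that of counting. They may be too narrow even for that. Without molecular identifiers 2 reads may stem from 1 molecule, and whether reads or read pairs were counted is not given. No P value is given, since each group has 1 library and hence no replicate check.

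**Figure D1:**
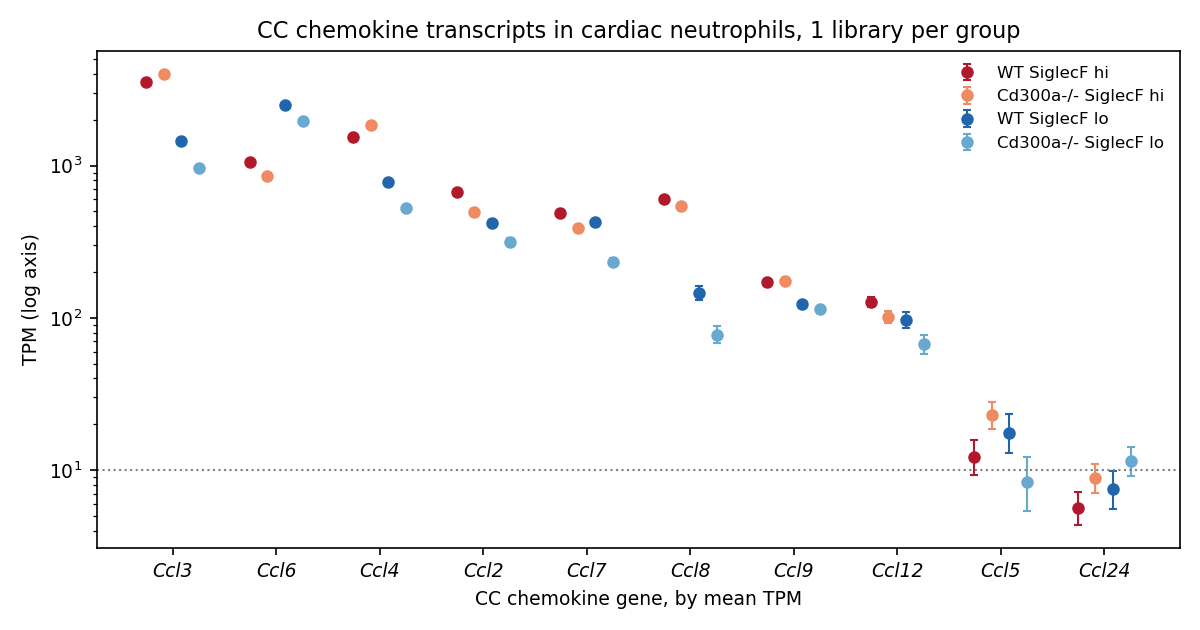
TPM of the 10 CC chemokine genes (log axis) in the 4 libraries, ordered by their mean, with 95% counting intervals as bars and the limit of 10 TPM as a dotted line. *Ccl3* is highest in SiglecF hi libraries and *Ccl6* in SiglecF lo libraries, and *Ccl5* and *Ccl24* lie near the limit.

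The macrophage inflammatory proteins and *Ccl5* come first. *Ccl3* (ENSMUSG00000000982), which encodes the Ccr1 ligand MIP-1α, was at 3561 TPM (WT SiglecF hi), 3988 TPM (*Cd300a-/-* SiglecF hi), 1451 TPM (WT SiglecF lo) and 969.8 TPM (*Cd300a-/-* SiglecF lo). Both SiglecF hi libraries were high, where it ranked 29 and 25 among all genes, and *Cd300a-/-* SiglecF lo was the lowest. *Ccl4* (ENSMUSG00000018930), which encodes the related chemokine MIP-1β, was at 1547 TPM, 1849 TPM, 786 TPM and 528 TPM in the same order of libraries. It had the same order of libraries as *Ccl3*, and the *Ccl3* to *Ccl4* ratio of TPM was 2.30, 2.16, 1.85 and 1.84. *Ccl5* (ENSMUSG00000035042), or RANTES, a ligand of Ccr1 and Ccr3 that T cells and NK cells are known to make, was much rarer, with 57 counts (12.2 TPM), 96 counts (23.0 TPM), 48 counts (17.6 TPM) and 25 counts (8.29 TPM). It was highest in *Cd300a-/-* SiglecF hi and lowest in *Cd300a-/-* SiglecF lo neutrophils. The 10 T and NK cell markers summed to 4.37 TPM, 9.32 TPM, 11.8 TPM and 11.5 TPM, led by *Cd3d* in SiglecF hi and *Cd3g* in SiglecF lo libraries, with the T cell receptor genes *Trac* and *Trbc2* at 0 in all 4. From WT to *Cd300a-/-* SiglecF lo, counts fell for *Gzma* (6 to 0), *Nkg7* (13 to 3), *Klrb1c* (16 to 0) and *Ncr1* (9 to 0). *Cd3e* fell from 7 to 0, while *Cd3d* (14 to 40), *Cd3g* (16 to 33) and *Cd8a* (0 to 19) rose. In SiglecF hi counts rose for *Cd3d* (19 to 55), *Gzma* (7 to 26), *Nkg7* (4 to 6) and *Ncr1* (0 to 6). They fell there for *Cd3g* (4 to 0), *Cd8a* (19 to 13) and *Klrb1c* (17 to 1). Their part in *Ccl5* was not tested.

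*Ccl6* and *Ccl9*, ligands of Ccr1 found in rodents, were unlike each other. *Ccl6* (ENSMUSG00000018927), which myeloid cells make, was at 1059.6 TPM (WT SiglecF hi), 852 TPM (*Cd300a-/-* SiglecF hi), 2498 TPM (WT SiglecF lo) and 1964 TPM (*Cd300a-/-* SiglecF lo). It was the only one of the 9 more abundant members that was high in both SiglecF lo and low in both SiglecF hi libraries. *Ccl9* (ENSMUSG00000019122), also called MIP-1γ, was at 172 TPM, 175 TPM, 123 TPM and 114 TPM in the same order and varied least of the 10, with a ratio of the highest to the lowest library of 1.53. The ratio of *Ccl6* to *Ccl3* in TPM was 0.298, 0.214, 1.72 and 2.02 in the same order, so that the larger of the pair changed with the subset.

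The monocyte chemoattractants followed. *Ccl2* (ENSMUSG00000035385), which encodes the Ccr2 ligand MCP-1, was at 666 TPM (WT SiglecF hi), 498 TPM (*Cd300a-/-* SiglecF hi), 419 TPM (WT SiglecF lo) and 317 TPM (*Cd300a-/-* SiglecF lo). Within each subset the WT library was the higher. *Ccl7* (ENSMUSG00000035373), or MCP-3, which also binds Ccr2, was at 488 TPM, 389 TPM, 429 TPM and 231 TPM in the same order. It was lowest in the *Cd300a-/-* SiglecF lo library. *Ccl12* (ENSMUSG00000035352), or MCP-5, another Ccr2 ligand of mice, was rarer, at 127 TPM, 101 TPM, 96.8 TPM and 67.02 TPM. *Ccl8* (ENSMUSG00000009185), or MCP-2, was at 606 TPM, 543 TPM, 145 TPM and 77.7 TPM. It differed most between libraries of the 10 members, with a ratio of the highest to the lowest of 7.81, and was high in both SiglecF hi libraries. *Ccl24* (ENSMUSG00000004814), or eotaxin-2, a Ccr3 ligand that attracts eosinophils, was rare, with 64 counts (5.63 TPM), 90 counts (8.85 TPM), 50 counts (7.51 TPM) and 84 counts (11.4 TPM), and was higher in the *Cd300a-/-* library of each subset.

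Differences are given as the log2((TPM + 1) ratio) of 2 libraries, a scale that understates the change of low genes. A gene was compared where its TPM, averaged over the 4 libraries, was over 10, which kept 6523 genes and 9 of the 10 members, all but *Ccl24* (mean 8.36 TPM), and a gene past 0.5 in either direction was counted as higher or lower. The 4 comparisons share libraries, each library being in 2 of them, and are therefore given side by side.

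In SiglecF hi neutrophils, most CC chemokines lay within 0.5 of each other in the 2 genotypes. Of the 9 members, 1 was higher, against 3.31% of all genes tested, and 0 were lower, against 3.46% (216 genes higher and 226 lower, or 172 and 267 after the median of all genes, 0.04, was taken off each ratio). The member that was higher was *Ccl5*, with a log2 ratio of 0.86 (95% counting interval 0.41 to 1.32), which rests on 96 and 57 counts. *Ccl3* and *Ccl4* had ratios of 0.16 (0.14 to 0.19) and 0.26 (0.22 to 0.30). The Ccr2 ligands had ratios below 0, at -0.42 (-0.48 to -0.35) for *Ccl2*, -0.33 (-0.40 to -0.25) for *Ccl7* and -0.33 (-0.51 to -0.15) for *Ccl12*, and *Ccl6* was at -0.31 (-0.35 to -0.28). *Ccl8* was at -0.16 (-0.24 to -0.08). *Ccl9* was at 0.02 (-0.04 to 0.08), an interval that includes 0, and at -0.02 once the median was taken off. The median of the 9 members was -0.16. The macrophage list, with 15 genes compared, had a median of -0.15, with 2 genes higher (*Cd163* and *Lyve1*) and 0 lower. The monocyte list, with 6 compared, had a median of -0.23 and 5 ratios below 0, with 0 genes higher and 0 lower. The fibroblast list, with 7 compared, had a median of -0.64 and 4 lower. The endothelial list, with 7 genes compared, had a median of 0.43, with 2 higher and 0 lower, and the neutrophil list, with 10 compared, had a median of 0.31, with *Ly6g* and *Retnlg* higher and 0 lower. The fibroblast genes, all 9 above 0 in each library and led by *Dcn*, summed to 2107 TPM (WT) and 1488 TPM (*Cd300a-/-*) there, and the part of these lists in the ratios was not tested.

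In SiglecF lo neutrophils, all 9 members had a ratio of *Cd300a-/-* to WT below 0, under each scaling tried, and 6 of them passed 0.5. In TPM as deposited, 51.2% of all genes tested had a ratio below 0. Of the 9 members, 6 were lower, against 19.9% of all genes tested, and 0 were higher, against 16.4%. The 6 were *Ccl5* at -0.998 (-1.67 to -0.34), *Ccl8* at -0.90 (-1.14 to -0.66), *Ccl7* at -0.89 (-0.998 to -0.78), *Ccl3* at -0.58 (-0.64 to -0.52), *Ccl4* at -0.57 (-0.66 to -0.49) and *Ccl12* at -0.52 (-0.79 to -0.26). They include ligands of Ccr2 as well as ligands of Ccr1. *Ccl12* passed 0.5 in TPM and after the median was taken off, but not in counts scaled with TMM or DESeq2 factors, where 5 members were lower. The other members were *Ccl2* at -0.40 (-0.50 to -0.30), *Ccl6* at -0.35 (-0.38 to -0.32) and *Ccl9* at -0.10 (-0.20 to -0.01), which less the median was -0.089 (-0.18 to 0.0019), an interval that includes 0, and -0.051 with DESeq2 factors. The median of the 9 members was -0.57, and that of all genes tested was -0.02. *Ccl24*, below the TPM limit, went the other way, at 0.55 (0.08 to 1.02), and was at 0.57 (0.16 to 0.98) in SiglecF hi neutrophils.

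Marker genes of other cells were compared between the SiglecF lo libraries as well. Of the 7 endothelial genes compared, 6 were lower in *Cd300a-/-* SiglecF lo neutrophils, with a median of -1.27. The endothelial list of 8 genes, all above 0 in each library and led by *Fabp4*, summed to 349 TPM (WT SiglecF hi), 467 TPM (*Cd300a-/-* SiglecF hi), 573 TPM (WT SiglecF lo) and 179 TPM (*Cd300a-/-* SiglecF lo). Of the 15 macrophage genes compared, 3 were lower and 2 higher, close to the shares of all genes (19.9% and 16.4%), with a median of -0.14. The 3 lower genes were *Fcgr1*, at 167 TPM (WT) and 71.1 TPM (*Cd300a-/-*), *Trem2*, at 157 TPM and 78.1 TPM, and *Ms4a7*, at 136 TPM and 84.1 TPM, and the 2 higher ones were *Cd163* and *Mrc1*. The monocyte list of 7 genes, all above 0 in each library, was led by *Chil3* in SiglecF hi and *Ly6c2* in SiglecF lo neutrophils. It summed to 1419 TPM, 1233 TPM, 1784 TPM and 1668 TPM in the same order of libraries. Of its 6 genes compared, 1 was lower in *Cd300a-/-* SiglecF lo neutrophils and 0 were higher. All 6 had a ratio below 0 there, with a median of -0.18. The neutrophil list had 4 of 10 genes higher and 0 lower there. The part of these genes in the chemokine ratios was not tested.

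The genotype ratios of the 2 subsets were then set against each other, as the ratio in SiglecF hi minus that in SiglecF lo neutrophils. The difference was 0.56 (0.43 to 0.69) for *Ccl7* and 0.74 (0.49 to 0.99) for *Ccl8*, whose ratios were below 0 in both subsets. It was 0.12 (0.02 to 0.23) for *Ccl9*, and 0.071 less the medians of all genes, a shift that takes the lower limit below 0. Less the medians it was 0.51 for *Ccl7* and 0.68 for *Ccl8*. For *Ccl2* (-0.02, -0.14 to 0.10), *Ccl6* (0.03, -0.02 to 0.08), *Ccl12* (0.20, -0.12 to 0.52) and *Ccl24* (0.02, -0.60 to 0.65) the interval included 0. *Ccl2* and *Ccl6* thus had nearly the same genotype ratio in both subsets within counting error, while *Ccl3*, *Ccl4* and *Ccl5* had ratios of opposite sign with both intervals clear of 0, as had 15.6% of all genes tested (10.2% in the direction of these 3). In SiglecF hi neutrophils *Ccl3* and *Ccl4* did not reach 0.5, so that *Ccl5* alone of the 9 was past 0.5 in opposite directions, against 1.07% of all genes. *Ccl9* also had ratios of opposite sign, but its interval in SiglecF hi neutrophils included 0, and less the medians both of its ratios were below 0. Beside these, the endothelial list had medians of 0.43 (SiglecF hi) and -1.27 (SiglecF lo), and the cardiomyocyte list, with 3 of 8 genes compared, 0.41 and -0.31, and the part of these lists was not tested.

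**Figure D2:**
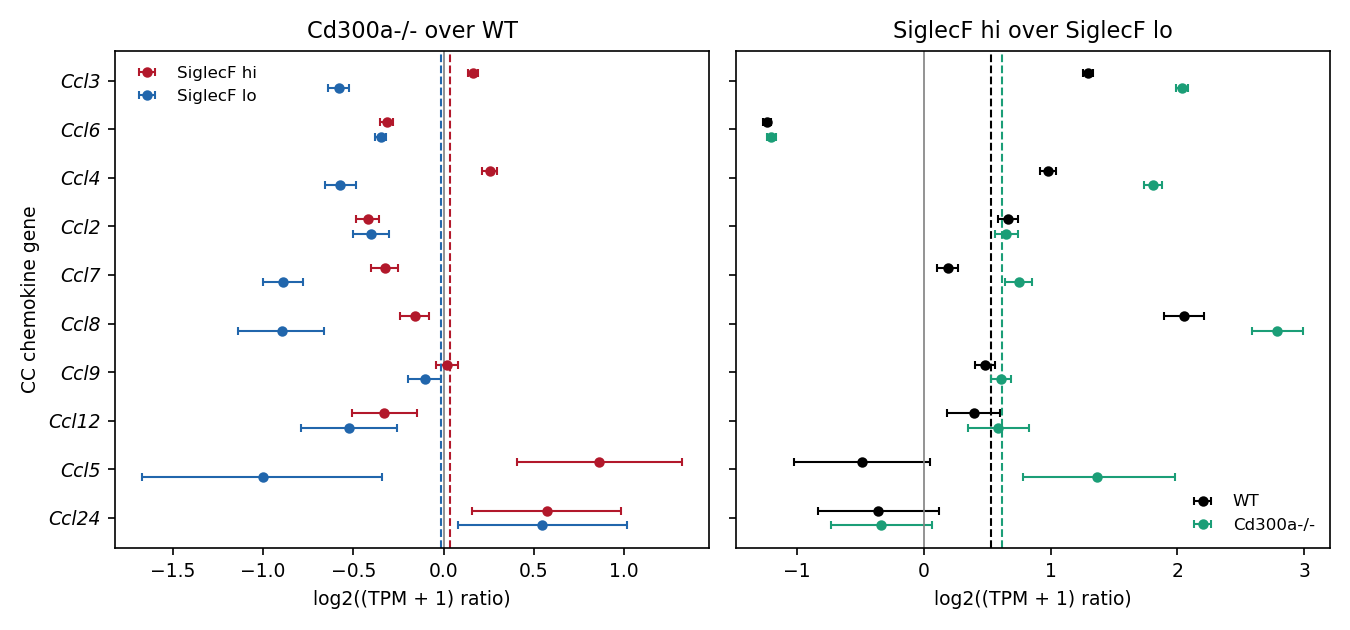
Log2((TPM + 1) ratio) of the 10 genes with 95% counting intervals as bars, between genotypes (left) and between subsets (right), with the median of all 6523 genes tested as dashed lines. Between genotypes, *Ccl3*, *Ccl4* and *Ccl5* lie above 0 in SiglecF hi and below 0 in SiglecF lo neutrophils, and between subsets *Ccl8* has the highest and *Ccl6* the lowest ratio in both genotypes.

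Between subsets the whole scale was shifted. The median of all genes tested was 0.53 in WT and 0.61 in *Cd300a-/-* for SiglecF hi against SiglecF lo neutrophils, and the 10 most abundant genes held 12.3% and 11.8% of TPM in SiglecF hi but 22.8% and 26.7% in SiglecF lo neutrophils, in WT and *Cd300a-/-*. Ratios are therefore given less that median. In WT, 2 of the 9 members were higher in SiglecF hi neutrophils, against 19.3% of all genes tested, and 2 were lower, against 20.9%. Without that step 4 were higher, against 51.9%, and 1 was lower, against 7.47%. In *Cd300a-/-*, 4 members were higher, against 21.2%, and 1 was lower, against 23.6%. Without that step 8 were higher, against 56.6%, and 1 was lower, against 7.97%.

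*Ccl8* had the highest ratio of the 10 members, at 1.53 (1.37 to 1.68) in WT and 2.18 (1.98 to 2.38) in *Cd300a-/-* less the median, and 98.7% and 99.4% of the genes tested had a lower ratio. *Ccl3* followed among those past 0.5 in both genotypes, at 0.77 (0.73 to 0.81) in WT and 1.43 (1.38 to 1.47) in *Cd300a-/-*. *Ccl4* was at 0.45 (0.39 to 0.51) in WT, where it was 0.98 as deposited, and 1.19 (1.12 to 1.26) in *Cd300a-/-*. These 3 genes had ratios above 0 under each scaling tried. *Ccl6* was below 0 under each, at -1.76 (-1.79 to -1.73) in WT and -1.82 (-1.85 to -1.78) in *Cd300a-/-*. Of the genes tested, 2.16% and 2.88% had a lower ratio than *Ccl6*. *Ccl5* was at -1.02 (-1.55 to -0.48) in WT and at 0.75 (0.17 to 1.37) in *Cd300a-/-* less the median. In TPM as deposited it was at -0.49 (-1.02 to 0.05) in WT, an interval that includes 0, and at 1.37 (0.78 to 1.98) in *Cd300a-/-*. Less the median, all 7 endothelial genes compared were lower on the SiglecF hi side in WT (median -1.19), while in *Cd300a-/-* 2 were higher and 0 lower, with a median of 0.10. As deposited, 6 of the 7 were lower in WT (median -0.66), and 6 were higher in *Cd300a-/-* (median 0.72). On low counts, *Gzma*, *Nkg7*, *Klrb1c* and *Ncr1* had less TPM in SiglecF hi neutrophils in WT and more in *Cd300a-/-*. *Cd3d* and *Cd3g* had less in both genotypes, and *Cd8a* turned the other way. The part of all these genes in the ratios of *Ccl5* was not tested.

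*Ccl24*, below the TPM limit, was at -0.89 (-1.36 to -0.41) in WT and -0.95 (-1.35 to -0.55) in *Cd300a-/-*, against -0.36 (-0.84 to 0.12) and -0.34 (-0.74 to 0.06) in TPM as deposited, where both intervals include 0. The other 4 members were within 0.5 of the median of all genes between subsets. *Ccl2* was at 0.14 (0.06 to 0.22) in WT and 0.04 (-0.05 to 0.13) in *Cd300a-/-*, against 0.67 and 0.65 in TPM as deposited, both past 0.5, and at -0.016 in *Cd300a-/-* with DESeq2 factors. *Ccl7* was at -0.34 (-0.42 to -0.26) in WT, where it was 0.19 in TPM as deposited, and at 0.13 (0.03 to 0.24) in *Cd300a-/-*, where it was 0.75 as deposited. *Ccl9* was at -0.05 (-0.12 to 0.03) in WT and -0.0074 (-0.08 to 0.07) in *Cd300a-/-*, against 0.48 and 0.61 in TPM as deposited. *Ccl12* was at -0.13 (-0.34 to 0.08) in WT and -0.03 (-0.27 to 0.22) in *Cd300a-/-*, against 0.39 and 0.59 as deposited. For *Ccl9* and *Ccl12* the interval less the median included 0 in both genotypes. Beside these ratios, 11 of the 15 macrophage genes compared were higher less the median in WT SiglecF hi neutrophils and 9 in *Cd300a-/-*, with 1 lower in each and medians of 0.90 and 0.61, and all 10 neutrophil genes were lower in both, with medians of -1.54 and -1.82. Of the 7 fibroblast genes compared, 4 were higher and 1 lower in WT less the median, and 0 higher and 2 lower in *Cd300a-/-*. As deposited, 6 were higher and 1 lower in WT, and 3 higher and 0 lower in *Cd300a-/-*. Of the 6 monocyte genes compared, 3 (*Ccr2*, *Chil3* and *Ly6c2*) were lower and 0 higher less the median in both genotypes, with medians of -0.46 and -0.39. As deposited, 2 were higher and 1 lower in both genotypes, with medians of 0.07 and 0.23. The part of these lists in the ratios was not tested.

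A list of 14 CC chemokine receptor genes was compared, of which 3, *Ccr1*, *Ccr2* and *Ccrl2*, passed the TPM limit. *Ccr1*, a receptor of *Ccl3*, *Ccl5*, *Ccl6* and *Ccl9*, was at 569 TPM (WT SiglecF hi), 623 TPM (*Cd300a-/-* SiglecF hi), 673 TPM (WT SiglecF lo) and 677 TPM (*Cd300a-/-* SiglecF lo), and *Ccrl2*, a receptor-like protein that does not signal as these do, was at 1646 TPM, 1948 TPM, 751 TPM and 476 TPM in the same order. *Ccr2* was at 65.2 TPM, 53.2 TPM, 65.2 TPM and 50.6 TPM. Of these 3, *Ccrl2* was past 0.5 between genotypes, at -0.66 (-0.70 to -0.61) in SiglecF lo neutrophils, where 19.9% of all genes were lower. The 11 below the limit had low counts, and no share of all genes was counted for such genes, so their calls are not given. The largest ratio between genotypes among them was that of *Ackr4* in SiglecF lo neutrophils (2.15, 1.72 to 2.45, with 58 counts against 0). Between subsets, less the median, *Ccr1* was at -0.77 (WT) and -0.73 (*Cd300a-/-*), *Ccr2* at -0.53 and -0.54, and *Ccrl2* at 0.60 and 1.42. As deposited, *Ccr1* and *Ccr2* were within 0.5. Of 22 genes that act downstream of chemokine receptors, 20 passed the limit, and 0 were past 0.5 between genotypes in SiglecF hi neutrophils, beside 3.31% of all genes higher and 3.46% lower. Of the 20, 4 had a higher level in the *Cd300a-/-* SiglecF lo library, close to the 16.4% of all genes, and 0 were lower, beside 19.9%. The 4 were *Pik3r6* (0.83, 0.53 to 1.14) and *Pik3r5* (0.57, 0.45 to 0.69), regulatory subunits of PI3Kγ, the receptor kinase *Grk6* (0.68, 0.57 to 0.80) and *Arrb1* (0.65, 0.53 to 0.78), which encodes an arrestin that takes part in receptor desensitisation. Less the median, the subsets differed in 2 of the 20 higher and 6 lower in WT, beside 19.3% and 20.9% of all genes, and in 1 higher and 9 lower in *Cd300a-/-*, beside 21.2% and 23.6%, with *Rgs1*, a regulator that shortens G protein signals, higher in both (0.82 and 0.81). The balance turned with the scaling. As deposited, 7 of the 20 were higher and 1 lower in WT, beside 51.9% and 7.47% of all genes. In *Cd300a-/-* 4 were higher and 1 lower as deposited, beside 56.6% and 7.97%.

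The 14 other CC chemokine genes were rare. None reached 10 TPM in any library, and 2, *Ccl1* and *Ccl27b*, were at 0 in all 4. The highest was *Ccl11*, or eotaxin-1, with 58 counts (6.11 TPM) for WT and 38 counts (4.47 TPM) for *Cd300a-/-* in the SiglecF hi libraries, and 0 counts in both SiglecF lo libraries, where the 95% limit allows up to 0.664 TPM in WT and 0.601 TPM in *Cd300a-/-*.

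Of the 10 members, 9 lie on chromosome 11 in 2 groups, at positions given by the files, which the submitters' processing notes place on GRCm39. *Ccl2*, *Ccl7*, *Ccl12* and *Ccl8*, in this order and all on the plus strand, span 81.2 kb (chr11:81926397-82007625), with *Ccl11* between *Ccl7* and *Ccl12*. *Ccl5*, *Ccl9*, *Ccl6* and *Ccl3* on the minus strand and *Ccl4* on the plus strand span 139 kb (chr11:83416604-83555509). *Ccl24* is on chromosome 5 (chr5:135598791-135601903, minus strand). Neighbours were not always alike in level. *Ccl9* and *Ccl6*, 9245 bases apart, had a *Ccl6* to *Ccl9* ratio of TPM of 6.15 (WT SiglecF hi), 4.87 (*Cd300a-/-* SiglecF hi), 20.3 (WT SiglecF lo) and 17.2 (*Cd300a-/-* SiglecF lo), whereas *Ccl3* and *Ccl4*, 13228 bases apart, had a ratio between 1.84 and 2.30 in all 4 libraries. *Ccl11*, though it lies between *Ccl7* and *Ccl12*, did not exceed 6.11 TPM. The only gene of the files that overlaps a member is *Gm17268*, antisense to *Ccl2*, and it was at 0 counts in all libraries. Several members resemble each other in sequence, and how reads that fit more than 1 gene were counted is not given in the sources used here.

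**Figure D3:**
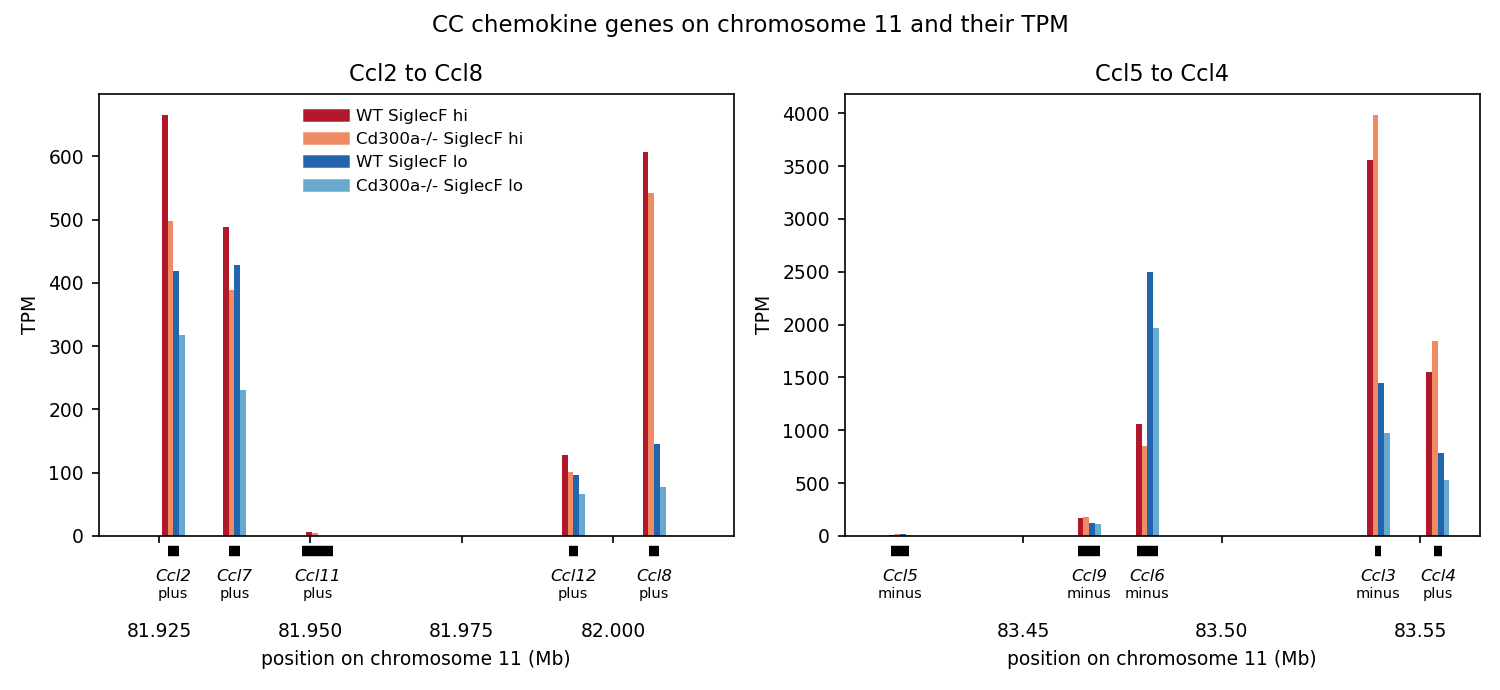
Positions of the CC chemokine genes of chromosome 11 to scale (Mb, black boxes, strand below each name) with their TPM in the 4 libraries as bars, on separate TPM axes that start at 0. *Ccl6* is highest in SiglecF lo libraries and its neighbours *Ccl9* and *Ccl3* are highest in SiglecF hi libraries, and *Ccl11* is close to 0. Less the median of all genes, the intervals of *Ccl9* between subsets include 0 in both genotypes.

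Promoters are shown for 2 pairs of neighbours. *Ccl9* and *Ccl6* lie side by side but had unlike ratios between subsets. *Ccl12* and *Ccl8* both passed -0.5 between genotypes in SiglecF lo neutrophils. The RefSeq promoter table (GRCm38.p6) held 5 of the 10 members, these 4 and *Ccl3*. The 250 bases before each gene start are printed 5′ to 3′ on the gene's strand, with matches to TATAAA on either strand in capitals. On GRCm38.p6 they are *Ccl9* (chr11:83578637-83578886, minus strand), *Ccl6* (chr11:83593088-83593337, minus strand), *Ccl12* (chr11:82101595-82101844, plus strand) and *Ccl8* (chr11:82114935-82115184, plus strand).
Ccl9: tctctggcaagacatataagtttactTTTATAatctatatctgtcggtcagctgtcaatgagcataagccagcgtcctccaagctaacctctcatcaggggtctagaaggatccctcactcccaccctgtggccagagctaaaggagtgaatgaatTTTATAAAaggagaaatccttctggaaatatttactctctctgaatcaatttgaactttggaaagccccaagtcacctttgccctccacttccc
Ccl6: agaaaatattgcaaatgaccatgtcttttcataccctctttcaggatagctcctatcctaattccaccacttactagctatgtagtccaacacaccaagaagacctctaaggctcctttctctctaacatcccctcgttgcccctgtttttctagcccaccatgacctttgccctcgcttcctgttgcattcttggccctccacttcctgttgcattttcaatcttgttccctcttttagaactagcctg
Ccl12: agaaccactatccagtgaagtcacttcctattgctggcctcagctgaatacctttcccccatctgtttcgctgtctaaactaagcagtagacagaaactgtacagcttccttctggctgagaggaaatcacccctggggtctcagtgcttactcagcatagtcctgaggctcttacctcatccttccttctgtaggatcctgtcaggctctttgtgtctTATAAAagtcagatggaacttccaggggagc
Ccl8: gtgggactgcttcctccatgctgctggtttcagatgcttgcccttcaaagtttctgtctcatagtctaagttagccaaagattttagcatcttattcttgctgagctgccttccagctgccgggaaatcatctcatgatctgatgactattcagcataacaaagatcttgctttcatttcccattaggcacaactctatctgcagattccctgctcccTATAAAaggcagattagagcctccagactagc
The letters TATAAA, the core of a TATA box, were found on the gene's strand 31 bases before the start in *Ccl12*, 32 before it in *Ccl8* and 92 before it in *Ccl9*, where they overlap a match on the other strand, and on neither strand in *Ccl6* and *Ccl3*. Of 32851 promoters of the same length, 12.4% held them on either strand. Other motifs were searched on both strands. TGANTCA, bound by AP-1, was found in *Ccl9* and 6.75% of promoters, and the usual 10-letter NF-κB motif in *Ccl9* and 7.25%. A shorter NF-κB form, GGANTTTCC, tried before it, was found in 0 of the 5 members and 1.07% of promoters. TTNCNNAA, a loose form of the C/EBP motif, was found in *Ccl9*, *Ccl3* and 36.8% of promoters, and GAGGAAG, a PU.1 motif, in *Ccl8* and 10.6%. A match describes the letters only, and binding was not measured.

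For each of the 9 members past the TPM limit, the 3 genes of nearest pattern were found among 6522 genes, by the Euclidean distance between log2(TPM + 1) values of the 4 libraries, each gene centred on its own mean. No other member was among the 3 nearest genes of any. *Ccl3* was nearest to *Nudcd2* (distance 0.0858), *Bcl2a1b* (0.0894) and *Xrcc1* (0.110), with *Ccl4* in place 60. *Ccl4* was nearest to *Srm* (0.0587), *Trp53* (0.0728) and *Snrpb* (0.0958). *Ccl5* was nearest to *Klf9* (0.222), *Oxnad1* (0.223) and *Dtd1* (0.265). *Ccl6* was nearest to *Steap4* (0.168), *Fkbpl* (0.187) and *Nedd9* (0.214). Its closest CC chemokine, *Ccl12*, was in place 2444. *Ccl9* was nearest to *Ppp4c* (0.0309), *Pip4k2a* (0.0310) and *Ywhab* (0.0315). *Ccl2* was nearest to *Pacc1* (0.0451), *Ndufa11* (0.0519) and *Cops6* (0.0784), with *Ccl12* in place 76. Among the other monocyte chemoattractants, *Ccl7* was nearest to *Cox7c* (0.0672), *Gcsh* (0.0844) and *Cbr3* (0.0855). *Ccl12* was nearest to *Bcl7b* (0.0251), *Nae1* (0.0424) and *Nedd8* (0.0476). *Ccl8* was nearest to *Tmem273* (0.207), *Entpd2* (0.255) and *Ccng1* (0.289), all higher in both SiglecF hi libraries. With 4 libraries, many genes share such a pattern.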

How the data were processed

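Neutrophils of 4 pooled samples were sorted, and poly(A) RNA was made into libraries with the NEBNext Ultra II kit and sequenced as paired ends on a NextSeq. The deposited count of a gene is a whole number without normalization. TPM was calculated by the authors with CLC Genomics Workbench and was used as deposited. The deposited RPKM and scaled CPM were not used. The submitters' processing notes name GRCm39. Mapping settings, the annotation release and whether reads or read pairs were counted are not given in the sources used here.

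The log2((TPM + 1) ratio) was computed with Python 3.11.15, numpy 2.4.6, pandas 2.3.3 and scipy 1.17.1, and figures with matplotlib 3.10.9. Its 95% interval combines the exact Poisson limits of both counts, and the calculation was tested on simulated data. The simulated counts had Poisson error alone, so the test covers the arithmetic and no other source of error. The limit was a mean TPM over 10 and the threshold 0.5. The alternatives were a pseudocount of 0.1, a mean TPM over 1, no filter, a threshold of 1, the share of counts in place of TPM, ratios less the median of all genes tested, and counts scaled with edgeR 4.0.16 (TMM) or DESeq2 1.42.0 (size factors) in R 4.3.3. Conditions were not tested against each other.

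The genes named were the 10 members, receptors, signalling genes and markers past the threshold or leading a list, and the 3 genes of nearest pattern. *Rgs1*, *Ccl11*, *Prg3*, *Ear2*, *Ccr3* and *Ackr4* were named after their values were seen, as were *Gzma*, *Nkg7*, *Klrb1c*, *Ncr1*, *Cd3e* and *Cd8a*. The motifs were chosen after the sequences were seen. The members and lists were chosen with earlier results of these data known. The share of all genes with ratios of opposite sign was counted after the ratios were seen. An item withheld from the text is not reported here, and the receptor list and its counts leave it out.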

Additional observations from a re-analysis of the deposited data

Results flagged for a closer look

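The *Cd300a* genotype went with opposite directions in the 2 subsets for 3 CC chemokine genes whose counting intervals left out 0 in both, *Ccl3*, *Ccl4* and *Ccl5*, as for 15.6% of the 6523 genes tested. *Ccl3* and *Ccl4* did not reach 0.5 in SiglecF hi neutrophils, and *Ccl5* alone of the 9 members compared was past 0.5 in both directions, against 1.07% of all genes. *Ccl9* also had ratios of opposite sign, at 0.02 and -0.10, but the first had an interval that included 0, and less the medians both were below 0. *Ccl3* had a genotype log2 ratio of 0.16 (SiglecF hi) and -0.58 (SiglecF lo), a difference of 0.7435 (95% counting interval 0.68 to 0.81). *Ccl4* had ratios of 0.26 and -0.57, a difference of 0.8282 (0.73 to 0.92). *Ccl5* had ratios of 0.86 and -0.998, a difference of 1.8582 (1.06 to 2.67), on 25 to 96 counts per library. Less the medians of all genes tested, the differences were 0.69, 0.77 and 1.80. The endothelial list turned the same way, with medians of 0.43 (SiglecF hi) and -1.27 (SiglecF lo), as did the cardiomyocyte list, at 0.41 and -0.31. Of the T and NK cell genes, *Gzma*, *Nkg7* and *Ncr1* turned the same way, on 0 to 26 counts per library. *Cd3d* was higher and *Klrb1c* lower in *Cd300a-/-* in both subsets, and *Cd3g* and *Cd8a* turned the other way. The part of these lists and genes was not tested. With 1 library per group the difference was not tested, and the intervals cover counting error only.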

How the results depend on the processing

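No paired analysis was run, and each group has 1 library. Between genotypes in SiglecF hi neutrophils, 2 members were higher with a mean TPM over 1 or no filter, which add *Ccl24*, and 0 at a threshold of 1, and the median was -0.070 with a mean TPM over 1. In SiglecF lo neutrophils, 1 was higher with a mean TPM over 1 or no filter, and 0 were lower at a threshold of 1. Between subsets in WT, 2 were higher with TMM, DESeq2, the median taken off or a threshold of 1, and 2 were lower with the first 3 of these or a pseudocount of 0.1. The median was -0.056 with TMM, -0.12 with DESeq2 and -0.045 less the median of all genes. In *Cd300a-/-*, 4 were higher under the same 4 settings, and the median was 0.17, 0.082 and 0.13. Shares of all genes are given only for TPM as deposited and less the median, so counts under other settings have none beside them. In WT, 3 members below the threshold changed sign with TMM, DESeq2 and the median taken off, *Ccl7* from 0.19 to -0.35, -0.42 and -0.34, *Ccl9* from 0.48 to -0.056, -0.12 and -0.045, and *Ccl12* from 0.39 to -0.14, -0.21 and -0.13. In *Cd300a-/-*, 3 members changed sign, *Ccl2* to -0.016 with DESeq2, *Ccl9* to -0.057 with DESeq2 and -0.0074 less the median, and *Ccl12* to -0.073 and -0.026. These scalings take off the shift of all genes between subsets. As a share of counts, the 10 genes held 0.324% (WT SiglecF hi), 0.316% (*Cd300a-/-* SiglecF hi), 0.343% (WT SiglecF lo) and 0.248% (*Cd300a-/-* SiglecF lo), which weights long genes more than TPM does and turns the order of the WT subsets. The pseudocount of 0.1 left all 40 ratios of single members within their counting intervals. Depth limits *Ccl5* and *Ccl24*, with 25 to 96 counts.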

Other observations

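Markers of other leukocytes and of heart muscle were also measured. The 6 B cell genes summed to 11.3 TPM (WT SiglecF hi), 18.3 TPM (*Cd300a-/-* SiglecF hi), 8.10 TPM (WT SiglecF lo) and 8.02 TPM (*Cd300a-/-* SiglecF lo). The 8 dendritic cell genes summed to 188 TPM, 228 TPM, 97.6 TPM and 96.0 TPM in the same order, of which the integrin gene *Itgax* gave 171 TPM, 213 TPM, 77.5 TPM and 87.2 TPM. The mast cell genes *Cpa3*, *Mcpt4*, *Cma1*, *Tpsb2* and *Fcer1a* were at 0 in all libraries, while *Kit*, which codes for the stem cell factor receptor, was at 13.2 TPM in *Cd300a-/-* SiglecF lo and between 1.15 TPM and 1.497 TPM in the others. The 9 eosinophil genes summed to 471 TPM, 525 TPM, 184 TPM and 103 TPM, nearly all of it from *Siglecf* and *Ear2*. The 8 cardiomyocyte genes summed to 51.2 TPM, 74.97 TPM, 59.7 TPM and 32.0 TPM. The fibroblast genes summed to 984 TPM (WT) and 994 TPM (*Cd300a-/-*) in the SiglecF lo libraries.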
